A study of Homo sapiens with 4 samples.

Results

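SPH is a line grown out of colonospheres, the floating spheres that colorectal cancer cells form in culture, and DLD1 is the human colorectal cancer cell line it came from. The comparison took the genes for which the higher of the 2 lines reached 1 RPKM (reads per kilobase of gene model, corrected for library size), which were 11446 of the 57746 genes listed. Of these, 6580 stood at 5 RPKM or more in both lines and are called broadly expressed. The labels call SPH mesenchymal and DLD1 epithelial. The series holds 2 further DLD1 derivatives, whose values are given beside those of SPH as description: SA, from soft agar colonies and labelled mesenchymal, and METS, from a metastasis that a xenograft formed in the lung and labelled epithelial. All 4 lines were kept in the same McCoy's medium with 10% serum, with no other treatment named in the labels, and total RNA of each was sequenced as 1 library. The labels do not say whether a derived line is a single clone, nor how long it was passaged. With 1 library per line there is no replicate check and no test, so every difference below compares 2 libraries, and errors cover counting alone. In RNA from a whole culture, fewer cells with a transcript and less of it per cell cannot be told apart.

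In an epithelial-mesenchymal transition, epithelial cells lose junctions and keratins and gain intermediate filaments of the vimentin type, secreted matrix proteins and motility, under transcription factors of the ZEB, SNAI and TWIST families. Sphere culture favours colorectal cancer cells that survive without attachment, and is often used to enrich cells able to start a tumour. The label of SPH was checked against markers. Of 8 mesenchymal markers, VIM and SPARC reached 1 RPKM, and the other 6 did not: CDH2 stood at 0.21 RPKM in SPH and 0.15 in DLD1, FN1 at 0.69 and 0.43, ZEB1 at 0.23 and 0.02, SNAI2 at 0.02 and 0.01, TWIST1 was listed at 0 in SPH and 0.01 in DLD1, and ZEB2 was listed at 0 in both. All 7 epithelial markers were compared genes, and their levels summed to 1756 RPKM in SPH and 2204 in DLD1. Most of the sum was keratin, with KRT8 at 587 and 817 RPKM and KRT18 at 504 and 680. E-cadherin, CDH1, stood at 97.3 RPKM in SPH and 115 in DLD1. Of the 7, 5 lay below DLD1 and 2 above. The 2 above were EPCAM, at 231 and 212 RPKM, and ESRP1, at 4.54 and 4.24. SPH thus had 2 of the 8 mesenchymal markers and all 7 epithelial ones at 1 RPKM or more. The 8 mesenchymal markers summed to 19.1 RPKM in SPH and 0.99 in DLD1. VIM stood at 12.2 RPKM in SPH and 0.18 in DLD1, and SPARC at 5.72 and 0.19. The 6 colon markers summed to 48.4 RPKM in SPH and 64.0 in DLD1, with KRT20 at 3.18 and 21.9. Of the 4 colon markers compared, 2 lay above DLD1 and 2 below. The 4 squamous markers summed to 5.16 RPKM in SPH and 0.17 in DLD1, nearly all of it KRT5, at 5.15 and 0.13. Marker sums of the remaining cell types were low. In SPH and DLD1 they were 0.49 and 0.22 RPKM for fibroblasts, 0.21 and 0.27 for endothelium and 1.43 and 1.44 for leukocytes. For smooth muscle they were 0.51 and 0.33, and for neurons 0.25 and 0.23. The fibroblast genes COL1A2, COL3A1, DCN and LUM and the leukocyte gene PTPRC were listed at 0 in both lines. From the steps of low values, 1 RPKM in a gene of 1 kb was worth an estimated 52.65 reads in SPH and 53.9 in DLD1, and mitochondrial transcripts held between 25.5% and 26.6% of the summed values in the 4 lines.

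Differences were taken in log2(RPKM + 1), a scale on which low genes move less than their ratio. By it, 144 of the 11446 genes (1.26%) differed at least 2-fold, 82 higher in SPH (0.716%) and 62 lower (0.542%). Of these, 13 differed at least 4-fold (0.114%), 8 higher (0.0699%) and 5 lower (0.0437%), and the other 131 are the main subject here. Among the 8 were VIM, IGFBP7, SPARC, S100A4, KRT5, CST1 and DKK4, at 3.47 to 52.4 RPKM in SPH and 0.04 to 8.56 in DLD1. The 5 were SH3BGRL, MGST1, KRT20, PRR9 and CST6, at 0.03 to 3.18 RPKM in SPH and 4.88 to 21.9 in DLD1. The median difference was 0.03, and 55.9% of compared genes lay above DLD1 in SPH and 43.6% below. Most of the 2-fold genes were low in 1 line. DLD1 was under 1 RPKM for 50 of the 82 higher genes and at most 0.1 RPKM for 17. SPH was under 1 RPKM for 30 of the 62 lower genes and at most 0.1 RPKM for 9. In log2(RPKM + 1), SA lay nearer to SPH than to DLD1 for 61 of the 82 higher genes and 43 of the 62 lower. These genes were picked by their SPH and DLD1 values, and no share over all compared genes is given beside the counts. The counts therefore do not show whether SA lay unusually near to SPH. The share of 2-fold genes was 1.93% where the higher value lay between 1 and 5 RPKM, 0.913% from 5 to 20, 0.740% from 20 to 100 and 0.667% from 100 upward. A gene length was known for 132 of the 144 genes, and for all 132 the 95% exact counting interval of the ratio of SPH to DLD1 lay to one side of 1, at 73 above and 59 below. The genes were picked by their difference in these same values, so this outcome was nearly fixed by the choice. Such intervals cover counting error alone.

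**Figure D1:**
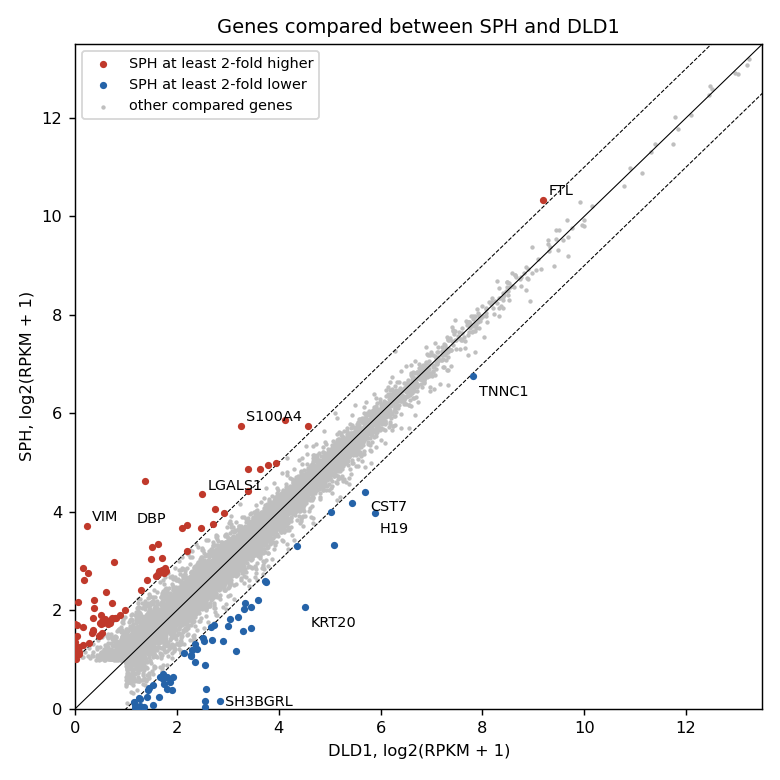
Level of each compared gene in SPH (vertical axis) against DLD1 (horizontal axis), both as log2(RPKM + 1), with 1 library per line. The solid line marks equal levels and the dashed lines 2-fold, with 82 genes above the upper dashed line in red and 62 below the lower one in blue.

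Listed at 0 in DLD1 were 6 of the 82 higher genes, among them NELL2, STC2, SLC17A9, CBS and ANO6, at 1.03 to 1.73 RPKM in SPH. STC2, a secreted stanniocalcin glycoprotein, stood at 1.55 RPKM in SPH, 1.59 in SA and was listed at 0 in METS and DLD1. LOXL4, a lysyl oxidase that crosslinks collagen and elastin, stood at 2.25 RPKM in SPH, 2.30 in SA and 0.09 in METS, against 0.03 in DLD1. On the lower side 1 gene, the ribosomal S6 kinase gene RPS6KA6, was listed at 0 in SPH, SA and METS, against 1.31 RPKM in DLD1. MGST1, a microsomal glutathione transferase, stood at 0.03 RPKM in SPH, 2.22 in SA and 8.14 in METS, against 4.88 in DLD1. SH3BGRL, a small SH3-binding protein gene, stood at 0.12 RPKM in SPH, 3.82 in SA and 14.3 in METS, against 6.16 in DLD1. The promoters of 4 genes that were near 0 in 1 line are printed as examples with more and with fewer CG. Cytosine can be methylated at CG, and the 2-fold genes are described by their CG counts in what follows. All 4 printed promoters hold at least 10 CG, so none shows a start below that count. Methylation itself was not measured. Capitals mark each CG in the 250 bases before the gene start, 5′ to 3′ on the strand of the gene, from RefSeq on GRCh38.p14. STC2 lies at chr5:173328415-173328664 on the minus strand with 22 CG, LOXL4 at chr10:98268195-98268444 on the minus strand with 37, MGST1 at chr12:16347395-16347644 on the plus strand with 12 and SH3BGRL at chrX:81201852-81202101 on the plus strand with 11.
STC2: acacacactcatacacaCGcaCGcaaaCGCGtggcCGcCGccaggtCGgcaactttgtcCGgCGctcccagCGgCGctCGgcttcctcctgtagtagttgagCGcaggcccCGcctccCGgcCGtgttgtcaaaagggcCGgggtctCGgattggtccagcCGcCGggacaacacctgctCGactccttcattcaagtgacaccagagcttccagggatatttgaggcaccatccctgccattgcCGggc
LOXL4: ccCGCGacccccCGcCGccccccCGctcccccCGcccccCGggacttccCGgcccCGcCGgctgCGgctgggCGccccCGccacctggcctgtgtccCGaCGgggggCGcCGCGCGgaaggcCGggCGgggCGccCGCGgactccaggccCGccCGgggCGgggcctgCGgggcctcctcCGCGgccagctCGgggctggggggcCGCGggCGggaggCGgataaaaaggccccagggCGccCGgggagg
MGST1: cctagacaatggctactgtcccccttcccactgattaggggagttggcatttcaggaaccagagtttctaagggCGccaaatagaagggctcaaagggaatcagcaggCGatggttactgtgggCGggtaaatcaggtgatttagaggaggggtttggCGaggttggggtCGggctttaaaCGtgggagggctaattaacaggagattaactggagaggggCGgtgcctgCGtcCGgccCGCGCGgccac
SH3BGRL: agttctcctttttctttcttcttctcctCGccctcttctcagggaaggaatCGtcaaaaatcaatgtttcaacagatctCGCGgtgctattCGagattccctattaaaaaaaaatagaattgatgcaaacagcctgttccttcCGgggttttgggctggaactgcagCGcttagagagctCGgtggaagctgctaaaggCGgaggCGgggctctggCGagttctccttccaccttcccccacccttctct

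Over the 2-fold genes as a whole, promoters with at least 10 CG and promoters with fewer were both present. At least 10 CG in the 250 bases were found in 56.6% of 53 higher genes and 57.8% of 45 lower genes with a RefSeq promoter, against 88.0% of 8791 compared genes, 91.4% of 5339 broadly expressed genes and 51.9% of all 27305 promoters. The cause of the difference between the 2-fold genes and the compared genes was not tested. The E-box CACCTG, which ZEB and SNAI factors bind, was searched on both strands and stood in 37.7% of the promoters of higher genes and 26.7% of those of lower genes, against 15.9% of compared genes and 17.5% of all promoters. TGANTCA, the AP-1 motif, stood in 5.66% of higher and 11.1% of lower genes, against 3.69% of compared genes and 6.60% of all promoters. CTTTGA, the core of the TCF/LEF motif, stood in 7.55% of higher and 8.89% of lower genes, against 7.22% of compared genes and 11.4% of all promoters. These matches are of letters alone, on few promoters, and show no binding.

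Beyond the 4-fold genes, several matrix genes were higher. LGALS1, galectin-1, a secreted lectin that binds matrix glycoproteins, stood at 19.4 RPKM in SPH, 15.8 in SA and 6.65 in METS, against 4.66 in DLD1 (ratio of SPH to DLD1 4.17, 95% counting interval 3.65 to 4.77). TGM2, the tissue transglutaminase that crosslinks proteins, stood at 3.16 RPKM in SPH, 3.39 in SA and 0.15 in METS, against 0.29 in DLD1. COL9A3, a chain of collagen IX, stood at 3.03 RPKM in SPH, 2.24 in SA and 0.94 in METS, against 0.96 in DLD1. CTHRC1, a secreted collagen triple helix repeat protein, stood at 2.43 RPKM in SPH, 2.57 in SA and 3.71 in METS, against 0.55 in DLD1. The sulfotransferase gene CHST11, which acts on chondroitin, stood at 1.40 RPKM in SPH and 0.03 in DLD1, and the membrane metalloprotease gene ADAM19 at 1.17 and 0.05. Of 21 compared genes in the list of matrix proteins and crosslinkers, 10 lay above DLD1 and 11 below, with a median of -0.11, so the list as a whole did not stand above DLD1. Collagens had 6 of 8 above and 2 below, with a median of 0.41. COL17A1, an epithelial transmembrane collagen, stood at 4.09 and 2.26 RPKM and the basement membrane chain COL4A1 at 2.56 and 1.37 in SPH and DLD1.

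Cytoskeletal genes differed in both directions. MSN, moesin, which links actin to the membrane, stood at 2.18 RPKM in SPH and 0.11 in DLD1, DBN1, the actin-binding drebrin, at 1.82 and 0.41, and GMFG, an actin-branch regulator, at 1.80 and 0.02. TUBB2B, a beta-tubulin of neurons, stood at 4.15 RPKM in SPH, 3.34 in SA and 0.26 in METS, against 0.52 in DLD1. TUBA1A, an alpha-tubulin, stood at 15.6 RPKM in SPH, 13.6 in SA and 14.1 in METS, against 5.71 in DLD1. These tubulins have near-identical copies, and TUBA1B stood at 638 and 716 RPKM, TUBA1C at 229 and 270, and TUBB2A at 14.3 and 19 in SPH and DLD1, so their reads may be divided unevenly. Another beta-tubulin, TUBB6, stood at 28.1 RPKM in SPH, 34.8 in SA and 36.9 in METS, against 41.4 in DLD1. Over 15 compared tubulins 8 lay above DLD1 and 7 below, with summed levels of 1468 RPKM in SPH and 1642 in DLD1. A tropomyosin and 2 troponin genes were lower. TNNC1, the calcium sensor of troponin in heart and slow muscle, stood at 107 RPKM in SPH, 127 in SA and 149 in METS, against 226 in DLD1 (ratio 0.476, 95% counting interval 0.462 to 0.490). TPM1, a tropomyosin, stood at 14.9 RPKM in SPH, 19.1 in SA and 19.7 in METS, against 31.7 in DLD1, and TNNT1, a troponin T, at 1.61, 1.65 and 0.90, against 4.75. SPH was thus the lowest of the 4 lines for TNNC1 and TPM1, while MYH7B, a myosin heavy chain, stood at 1.78 RPKM in SPH and 0.39 in DLD1. In the list of actin cytoskeleton and motility, 49 of 71 compared genes lay below DLD1 and 22 above, with a median of -0.12 against 0.03 over all compared genes. CDC42EP5, an effector of the GTPase CDC42, stood at 0.94 RPKM in SPH, 1.55 in SA and 0.95 in METS, against 4.09 in DLD1, and VILL, a villin-like gene, at 1.65, 2.29 and 6.40, against 5.44.

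Among signalling genes, several WNT inhibitors were higher and receptors differed in both directions. Receptor tyrosine kinases and their ligands had 17 of 46 compared genes above DLD1 and 29 below (median -0.07), and cytokine and TNF receptors 16 of 34 above and 18 below (median -0.01). APCDD1, NOTUM and DACT1, which restrain WNT signalling, stood at 2.59, 2.57 and 2.36 RPKM in SPH and 0.27, 0.65 and 0.46 in DLD1. The same 3 genes stood at 3.06, 2.22 and 1.35 RPKM in SA and 0.38, 0.48 and 0.24 in METS. In the list of WNT targets and antagonists, 23 of 34 compared genes lay above DLD1 and 11 below (median 0.10), with 5 at least 1.5-fold higher, against a background of 2.61%, and none at least 1.5-fold lower, against 2.01%. NKD2, another inhibitor of the pathway, stood at 7.91 RPKM in SPH, 4.78 in SA and 5.11 in METS, against 3.61 in DLD1. The ectodysplasin receptor EDAR stood at 2.43 and 0.44 RPKM, and the Hedgehog transcription factor GLI3 at 1.02 and 0.01, in SPH and DLD1. TNFRSF1B, the second TNF receptor, stood at 5.48 RPKM in SPH, 4.17 in SA and 1.5 in METS, against 2 in DLD1. IL17RB, an interleukin receptor, stood at 1.84 and 4.05 RPKM in SPH and DLD1, and IL1RN, the interleukin-1 receptor antagonist, at 1.20 and 3.22. SEMA3F, a secreted semaphorin of cell guidance, stood at 30.6 RPKM in SPH, 22.3 in SA and 20.3 in METS, against 14.5 in DLD1. ID3, an inhibitor of helix-loop-helix factors that BMP signals induce, stood at 63.2 RPKM in SPH, 46.2 in SA and 42.4 in METS, against 33.4 in DLD1, while its relative ID2 stood at 78.5 and 76.1 RPKM in SPH and DLD1.

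Several genes of vitamin A handling stood higher. STRA6, the retinol uptake receptor, stood at 1.29 RPKM in SPH and 0.01 in DLD1. CRABP2, which carries retinoic acid to its nuclear receptor, stood at 20.5 RPKM in SPH, 19.7 in SA and 1.81 in METS, against 9.59 in DLD1, and DHRS3, a retinal reductase, at 1.21 and 0.27 RPKM in SPH and DLD1, a difference of 0.80 in log2(RPKM + 1). The retinoid list had 15 compared genes, 10 above DLD1 and 5 below, with a median of 0.09, and 3 of the 15 were at least 2-fold higher, against 0.716% of all compared genes.

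Genes of the circadian clock formed a set noticed after the values were seen. DBP, a transcription factor that clock proteins drive directly, stood at 11.8 RPKM in SPH, 4.08 in SA and 2.02 in METS, against 3.30 in DLD1 (ratio 3.58, 95% counting interval 3.35 to 3.82). NR1D1, a repressor of the clock loop, stood at 28.4 RPKM in SPH, 16.9 in SA and 5.68 in METS, against 11.5 in DLD1. BHLHE41, a repressor of the same loop, stood at 2.75 RPKM in SPH and 0.42 in DLD1. TEF, a close relative of DBP, stood at 9.67 RPKM in SPH, 6.91 in SA and 3.64 in METS, against 5.97 in DLD1, and PER1 at 4.32, 2.64 and 1.81, against 2.78. SPH was the highest of the 4 lines for all 5. Smaller differences were seen for the activator ARNTL, at 2.89 and 2.02 RPKM in SPH and DLD1, CLOCK, at 1.62 and 1.49, PER2, at 3.76 and 3.21, CRY1, at 6.89 and 6.11, and NR1D2, at 14.5 and 12.5. The hour at which cells were taken is not in the labels, so a phase difference between the cultures was not tested.

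**Figure D2:**
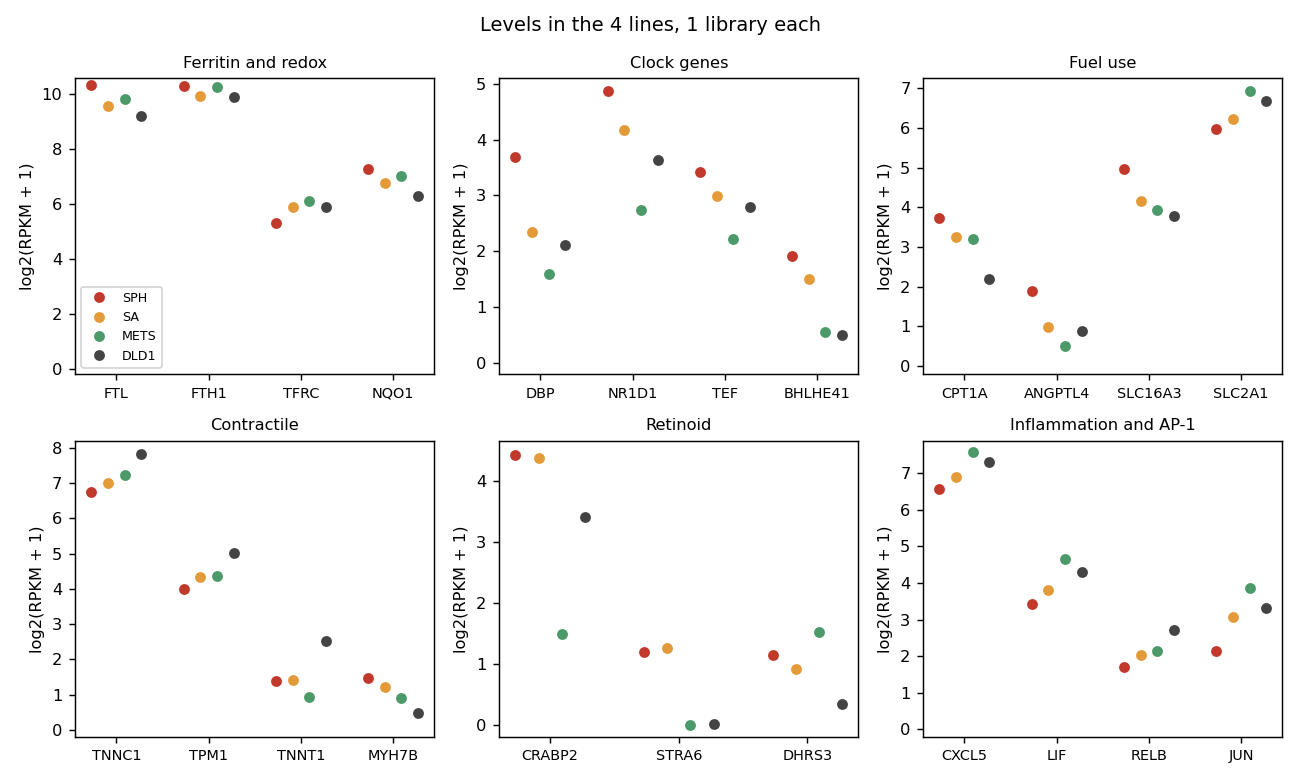
Levels of genes in 6 groups, as log2(RPKM + 1) on the vertical axis with a scale of its own in each panel, in SPH, SA, METS and DLD1 from left to right, each point 1 library. SPH is the highest point for FTL, DBP, NR1D1 and CPT1A and the lowest for TNNC1, CXCL5, LIF, RELB and JUN.

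Genes of fat and sugar use differed in both directions. CPT1A, which brings fatty acids into mitochondria for oxidation, stood at 12.4 RPKM in SPH, 8.54 in SA and 8.20 in METS, against 3.57 in DLD1 (ratio 3.46, 95% counting interval 3.25 to 3.69). ANGPTL4, a secreted inhibitor of lipoprotein lipase, stood at 2.72 RPKM in SPH and 0.84 in DLD1. SLC16A3, the lactate exporter, stood at 30.1 RPKM in SPH, 16.9 in SA and 14.3 in METS, against 12.8 in DLD1. The glucose transporter SLC2A1 stood at 61.9 RPKM in SPH, 74.0 in SA and 121 in METS, against 101 in DLD1 (ratio 0.610, 95% counting interval 0.598 to 0.622). TXNIP, which limits glucose uptake, stood at 33.0 RPKM in SPH, 17.6 in SA and 32.9 in METS, against 16.9 in DLD1. NDRG1, a stress gene induced in low oxygen, stood at 5.80 RPKM in SPH, 3.16 in SA and 2.54 in METS, against 2.34 in DLD1. HADH, an enzyme of fatty acid oxidation, stood at 13 RPKM in SPH, 17.2 in SA and 18.9 in METS, against 20.7 in DLD1, and PPARG, a nuclear receptor of fat metabolism, at 2.75, 4.06 and 6.10, against 5.82. The list of fatty acid binding and oxidation had 16 of 26 compared genes above DLD1 and 10 below (median 0.09), and that of hypoxia and glycolysis 18 of 39 above and 21 below (median -0.03). ELOVL5, a fatty acid elongase, stood at 1.21 RPKM in SPH and 0.01 in DLD1, while the list of cholesterol and fatty acid synthesis had 26 of 35 genes below DLD1 and 9 above (median -0.22). DHCR7, which makes cholesterol in its last step, stood at 29.6 and 46.3 RPKM, and LSS, the lanosterol synthase, at 11.3 and 16.8, in SPH and DLD1.

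Iron and redox genes gave the highest level among the 144. FTL, the light chain of ferritin, the iron store of the cell, stood at 1282 RPKM in SPH, 755 in SA and 917 in METS, against 585 in DLD1 (ratio 2.19, 95% counting interval 2.16 to 2.22). It has many processed copies, so some reads may have been divided. The heavy chain FTH1 stood at 1247 RPKM in SPH, 982 in SA and 1222 in METS, against 964 in DLD1, and the transferrin receptor TFRC, which brings iron in, at 38.9, 58.8 and 68.3, against 58.9 (ratio 0.660, 95% counting interval 0.647 to 0.673). Ferritin was therefore higher and the uptake receptor lower in SPH than in DLD1, but FTH1 and TFRC were picked after their values were seen. The list of metallothioneins and iron had 7 of 14 compared genes above DLD1 and 7 below (median -0.01). In it, 1 gene was at least 1.5-fold higher, against 2.61% of all compared genes, and 4 at least 1.5-fold lower, against 2.01%. NQO1, a quinone reductase of the NRF2 programme, stood just outside 2-fold at 152 RPKM in SPH, 109 in SA and 130 in METS, against 77.3 in DLD1. Other NRF2 targets differed less, with TXNRD1 at 72.8 and 67.3 RPKM, GCLM at 9.48 and 7.02 and HMOX1 at 6.69 and 6.64 in SPH and DLD1. ALDH3B1, an aldehyde dehydrogenase, stood at 5.68 RPKM in SPH, 3.09 in SA and 2.30 in METS, against 2.08 in DLD1. On the lower side, CHAC1, which degrades glutathione and is induced by amino acid stress, stood at 3.20 RPKM in SPH, 4.58 in SA and 11.4 in METS, against 9.96 in DLD1. STEAP1, a metalloreductase-family protein, stood at 1.12 RPKM in SPH, 2 in SA and 3.31 in METS, against 3.82 in DLD1. In the list of amino acid and unfolded protein stress, 35 of 43 compared genes lay below DLD1 and 8 above (median -0.20); asparagine synthetase, ASNS, stood at 24.3 and 37.6 RPKM and the serine enzyme PHGDH at 26.2 and 41.9 in SPH and DLD1. CBS, of the path from homocysteine to cysteine, stood at 1.10 RPKM in SPH and was listed at 0 in DLD1.

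Inflammatory genes lay mostly below DLD1, and early-response genes in both directions. JUN, a subunit of AP-1, stood at 3.44 RPKM in SPH, 7.38 in SA and 13.7 in METS, against 9.04 in DLD1. CYR61, a matricellular protein that YAP induces, stood at 17.2 RPKM in SPH, 28.7 in SA and 24.6 in METS, against 42.4 in DLD1. RELB, an NF-kB subunit, stood at 2.24 RPKM in SPH, 3.10 in SA and 3.38 in METS, against 5.59 in DLD1. The NF-kB list had 19 of 24 compared genes below DLD1 and 5 above (median -0.21), with 4 at least 1.5-fold lower, against 2.01% of all compared genes, and none at least 1.5-fold higher, against 2.61%. NFKBIE, an inhibitor of NF-kB, stood at 7.94 and 12.9 RPKM in SPH and DLD1, IL32 at 0.04 and 1.43 and the acute-phase gene SAA1, which has a near-identical copy, at 0.17 and 1.38. Among chemokines and cytokines, 15 of 20 compared genes lay below and 5 above (median -0.07), with 6 at least 1.5-fold lower, against 2.01% of all compared genes, and 1 at least 1.5-fold higher, against 2.61%. CXCL5, which draws neutrophils, stood at 93.9 RPKM in SPH, 119 in SA and 190 in METS, against 158 in DLD1. The cytokine gene LIF stood at 9.72 RPKM in SPH, 12.9 in SA and 24.1 in METS, against 18.6 in DLD1. IL33, an alarmin, went the other way at 12.6 RPKM in SPH, 7.68 in SA and 1.65 in METS, against 7.16 in DLD1, and FOS, the partner of JUN, at 4.33, 2.53 and 2.62, against 1.94. PTGER2, a prostaglandin E receptor, stood at 0.41 and 2.36 RPKM in SPH and DLD1.

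A pair of genes known from cytotoxic lymphocytes differed in opposite directions. PRF1, perforin, stood at 3.65 RPKM in SPH, 4.19 in SA and 0.86 in METS, against 0.30 in DLD1. CST7, cystatin F, stood at 20.3 RPKM in SPH, 25.7 in SA and 40.4 in METS, against 50.8 in DLD1. Of genes that mark such lymphocytes, CD8A stood at 0.26 and 0.23 RPKM and NKG7 at 0.22 and 0.18 in SPH and DLD1. PTPRC, CD3E and GZMA were listed at 0 in both lines, and GZMB and GNLY stood at 0.01 RPKM in SPH and were listed at 0 in DLD1.

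Proteases and their inhibitors differed in both directions, with 29 of 62 compared genes above DLD1 and 33 below (median -0.04). SERPINB5, maspin, stood at 8.27 RPKM in SPH, 3.60 in SA and 8.59 in METS, against 3.56 in DLD1, and SERPINA1, alpha-1 antitrypsin, at 4.36, 2.26 and 1.06, against 1.44. TIMP3, an inhibitor of metalloproteases, stood at 0.06 RPKM in SPH and 1.26 in DLD1, and the carboxypeptidase gene CPA4 at 0.02 and 1.56. The trypsinogen gene PRSS1 stood at 1.09 RPKM in SPH, 3.02 in SA and 7.02 in METS, against 3.85 in DLD1, with 2 near-identical neighbouring copies also lower, so the 3 are not independent. SLPI, a leukocyte protease inhibitor, stood at 8.42 RPKM in SPH, 12.9 in SA and 28.4 in METS, against 17.2 in DLD1.

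Epithelial genes were mostly slightly lower. Of 10 compared keratins 8 lay below DLD1 and 2 above (median -0.49), and of 31 genes of adhesion and junctions 23 lay below and 8 above (median -0.12). CLDN1, a tight junction claudin, stood at 0.56 and 2.48 RPKM, and GJB6, a connexin of gap junctions, at 0.03 and 1.28, in SPH and DLD1. A claudin of another kind, CLDN11, known from myelin and testis, stood at 1.38 and 0.06 RPKM. Cornified-envelope and squamous genes had 6 of 10 compared members above DLD1 and 4 below (median 0.27), with 2 at least 2-fold higher, against 0.716% of all compared genes, and 2 at least 2-fold lower, against 0.542%. The higher ones were SERPINB5 and the basal keratin KRT5, at 5.15 RPKM in SPH, 4.96 in SA and 0.07 in METS, against 0.13 in DLD1. The lower ones were PRR9, at 0.11, 1.15 and 1.38, against 4.90, and the protease inhibitor CST6, at 0.32, 0.84 and 0.97, against 4.98. Outside the list, the sciellin gene SCEL stood at 1.29 RPKM in SPH, 1.84 in SA and 2.45 in METS, against 3.90 in DLD1. Intestinal genes were mixed, with 13 of 21 above and 8 below (median 0.06). CA2, a carbonic anhydrase of the absorptive colon, stood at 5.05 RPKM in SPH, 5.16 in SA and 10.7 in METS, against 12.3 in DLD1, whereas the trefoil peptides TFF1 and TFF3, which protect mucosa, stood at 10.5 and 12.5 RPKM in SPH, against 5.89 and 7.33 in DLD1. S100P, a calcium-binding protein of the S100 family, stood at 9 RPKM in SPH, 6.78 in SA and 129 in METS, against 33.1 in DLD1, and the imprinted noncoding RNA H19 at 14.7, 9.74 and 2893, against 58.0.

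A run of lower genes lay on the X chromosome, next to each other among the compared genes. HMGN5, a nucleosome-binding protein gene, stood at 0.06 RPKM in SPH, 0.62 in SA and 0.23 in METS, against 1.89 in DLD1, ahead of SH3BGRL and RPS6KA6, whose values are given above. POU3F4 and CYLC1, between SH3BGRL and RPS6KA6, and HDX, after RPS6KA6, were listed at 0 in all 4 lines. The nearest compared genes on either side, BRWD3, at 2.79 and 2.45 RPKM in SPH and DLD1, and APOOL, at 3.05 and 2.94, were close, and the cause was not tested. Further along, ZNF711 stood at 0.86 RPKM in SPH, 2.36 in SA and 3.94 in METS, against 2.30 in DLD1, and POF1B at 4.78, 5.62 and 5.18, against 6.55. Elsewhere NELL2 and ANO6, neighbours on chromosome 12 among the genes measured, were both listed at 0 in DLD1. By chromosome, the median difference of broadly expressed genes ran from -0.04 on chromosome 22 to 0.07 on chromosome 13.

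**Figure D3:**
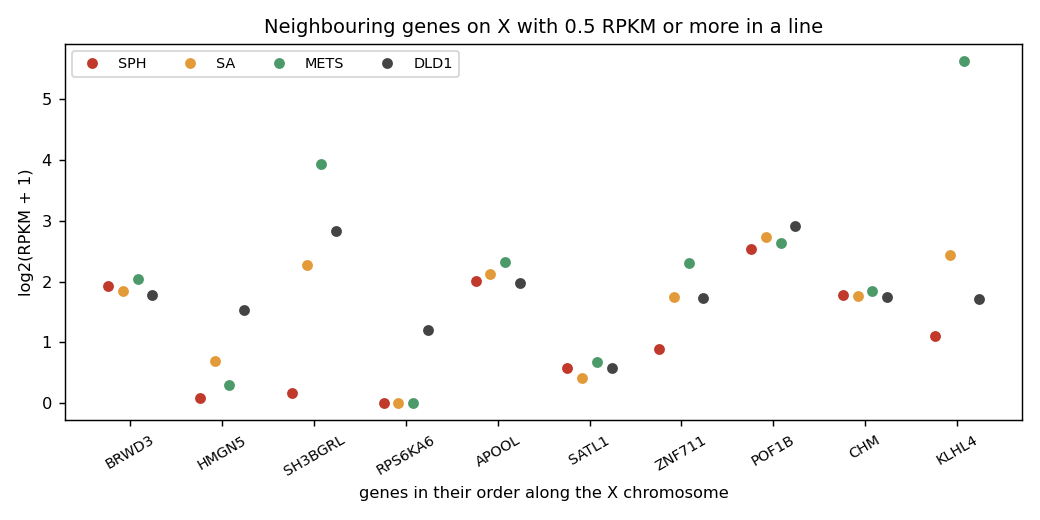
Levels of neighbouring genes with 0.5 RPKM or more in a line, in their order along the X chromosome, as log2(RPKM + 1) on the vertical axis in SPH, SA, METS and DLD1, each point 1 library. HMGN5, SH3BGRL and RPS6KA6 are near 0 in SPH, while BRWD3 and APOOL differ little between the lines.

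The other lower genes covered several roles. EFHD1, a mitochondrial calcium-binding protein, stood at 1.25 RPKM in SPH, 1.72 in SA and 5.78 in METS, against 7.89 in DLD1. MAGED1 stood at 2.11 RPKM in SPH, 3.79 in SA and 2.99 in METS, against 9.94 in DLD1. NFIB, a transcription factor, stood at 0.86 RPKM in SPH, 3.07 in SA and 2.19 in METS, against 4.85 in DLD1. ALPP, the placental alkaline phosphatase, which has close copies, stood at 2.01 RPKM in SPH, 3.25 in SA and 8.21 in METS, against 8.89 in DLD1. INHBB, an activin subunit, stood at 3.62 RPKM in SPH, 3.78 in SA and 9.62 in METS, against 11 in DLD1. MDK, the growth factor midkine, stood at 1.32 RPKM in SPH, 2.30 in SA and 1.23 in METS, against 4.26 in DLD1. PPP1R14C, an inhibitor of protein phosphatase 1, stood at 1.60 RPKM in SPH, 6.36 in SA and 4.90 in METS, against 6.46 in DLD1, and the amino acid transporter gene SLC6A20 at 2.21, 5.55 and 4.18, against 6.97. COCH, cochlin, stood at 2.62 RPKM in SPH, 5.07 in SA and 7.33 in METS, against 8.24 in DLD1, and OLFML3 at 8.82, 9.42 and 1.40, against 19.4. The growth factor receptor FGFR3 stood at 0.34 RPKM in SPH and 1.72 in DLD1. The rest of the lower genes were KRTAP3-1, ARHGAP40, ACN9, ENTPD3, C6orf15, LRFN1, IGFL2, MSLN, GALNT5, PIK3R2_1, FAR2, ACOT4, SGPP2, ZNF185, TRMT12, SULT1C4, RASGRF2 and POMZP3, at 0.01 to 4.96 RPKM in SPH and 1.23 to 12.4 in DLD1, and 1 more had a clone name.

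The other higher genes also covered several roles. PCP4, a calmodulin-binding protein, stood at 28.1 RPKM in SPH, 16.9 in SA and 15.8 in METS, against 9.57 in DLD1. ARHGAP18, a GTPase-activating protein gene, stood at 52.2 RPKM in SPH, 36.4 in SA and 20.2 in METS, against 22.9 in DLD1, and SLC44A4, a choline transporter-like protein, at 12.6, 7.71 and 1.64, against 5.50. KCNJ5, an inward-rectifier potassium channel, stood at 6.10 RPKM in SPH, 4.20 in SA and 0.60 in METS, against 2.27 in DLD1. RGCC stood at 5.12 RPKM in SPH, 4.42 in SA and 1.62 in METS, against 1.67 in DLD1, and SMIM3 at 11.7, 7.40 and 5.86, against 4.53. Some differences cannot be assigned to a gene: the read-through name ATP6V1G2-DDX39B stood at 57.2 and 16.5 RPKM while DDX39B itself stood at 52.5 and 74.8, and SYS1-DBNDD2 stood at 3.46 and 0.65 while DBNDD2 stood at 5.74 and 10.7, in SPH and DLD1. The antisense RNA ADIRF-AS1 stood at 9.15 and 2.11 RPKM and its partner ADIRF at 3.80 and 1.78, and counting is not stated to use strand. LIMS3_2 and PIK3R2_1 carry a suffix in the deposited names and may be copies. The remaining named genes were TMED7, LDLRAD1, SLC51B, EMP3, SESN3, ARHGAP4, DHRS2, PRKCDBP, B3GNT9, GSDMA, CHRNA1, CCDC183, PTPRN2 and MYO15B, at 1.22 to 7.22 RPKM in SPH and 0.01 to 2.46 in DLD1, and 8 more had clone names. At the edge of 2-fold, MYO15B lay inside at 5.93 and 2.46 RPKM and VWA2 outside at 3.70 and 1.37, and on the lower side POMZP3 lay inside at 1.18 and 3.40 and CGREF1 outside at 2.36 and 5.60, in SPH and DLD1.

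Among the 6580 broadly expressed genes, most barely differed. Within 1.25-fold lay 90.6%, with an SD of the difference of 0.21, and 20 (0.304%) were at least 2-fold apart, 12 higher (0.182%) and 8 lower (0.122%). At 1.5-fold, 123 (1.87%) were apart, 52 higher (0.79%) and 71 lower (1.08%). With median-of-ratios scaling the split was 41 higher and 85 lower, so the share of higher calls was 32.5% in place of 42.3%. VCP, an ATPase that extracts proteins for degradation, stood at 50.7 RPKM in SPH, 65.3 in SA and 78.8 in METS, against 93.6 in DLD1 (ratio 0.542, 95% counting interval 0.531 to 0.553). F3, tissue factor, which starts coagulation, stood at 18.8 RPKM in SPH, 30.4 in SA and 24.8 in METS, against 36.0 in DLD1. PHLDA1, an immediate-early gene, was among the higher at 58.8 RPKM in SPH, 35.6 in SA and 39.9 in METS, against 34.5 in DLD1. The potassium channel KCNQ1 stood at 9.70 RPKM in SPH, 4.97 in SA and 3.50 in METS, against 5.12 in DLD1.

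**Figure D4:**
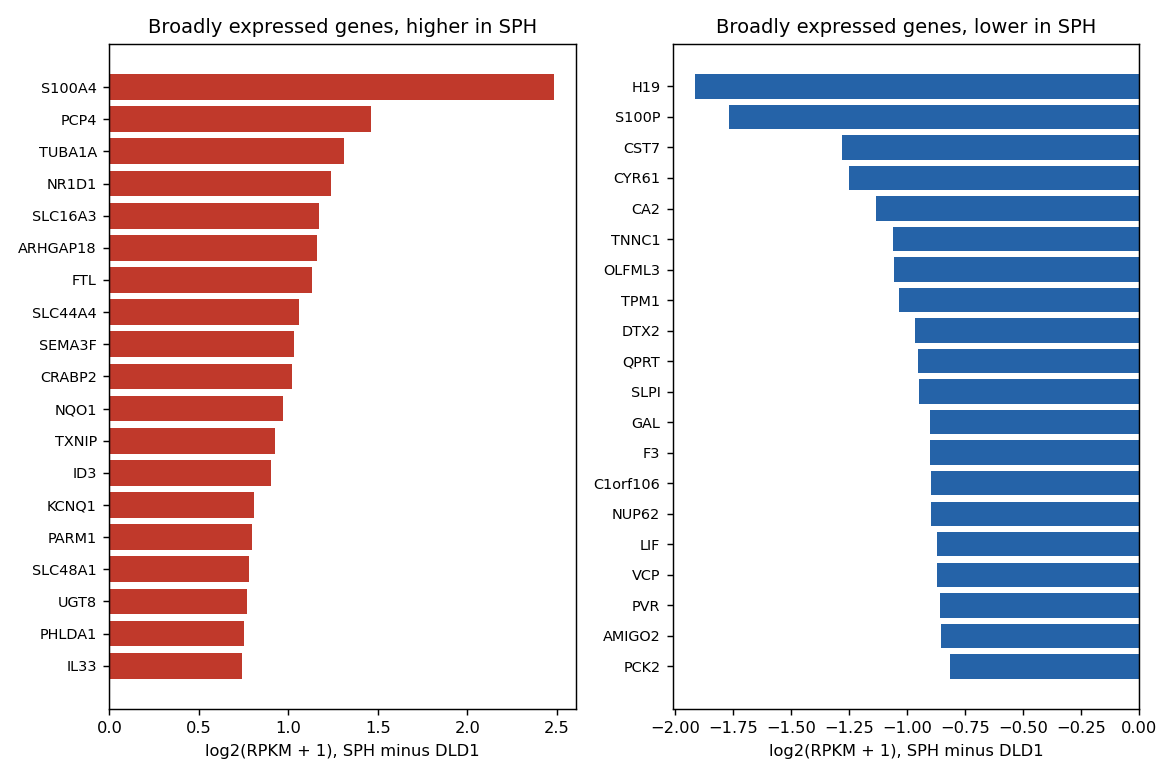
Differences of the named broadly expressed genes, SPH minus DLD1 in log2(RPKM + 1) on the horizontal axis, with the highest 19 on the left (the read-through name is left out) and the lowest 20 on the right, from 1 library per line. S100A4 and H19 have the longest bars, at 2.48 and -1.91.

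Whole gene classes shifted by little, and each list is set here against 55.9% above and 43.6% below DLD1 and a median of 0.03 over all compared genes. DNA replication had 42 of 46 genes below DLD1 and 4 above (median -0.15). None of the 46 reached 1.5-fold, against 2.61% of all compared genes at least 1.5-fold higher and 2.01% lower. MCM2, part of the helicase, stood at 40.8 and 53 RPKM and PCNA, the sliding clamp, at 212 and 234 in SPH and DLD1. Mitosis and proliferation genes had 24 of 40 above and 16 below (median 0.05). Of the 40, 1 was at least 1.5-fold lower, against 2.01% of all compared genes, and none at least 1.5-fold higher, against 2.61%. The 1 lower gene was CCNE1, cyclin E1, at 6.93 and 12.2 RPKM in SPH and DLD1. Cytosolic ribosomal proteins had 62 of 82 above and 20 below (median 0.09), and nuclear genes of the respiratory chain 51 of 74 above and 23 below (median 0.06). Interferon response genes had 20 of 26 below and 6 above (median -0.08). Of p53 targets, 16 of 24 lay above and 8 below (median 0.07). Yet 2 of the 24 were at least 1.5-fold lower, against 2.01% of all compared genes, and none at least 1.5-fold higher, against 2.61%. Their levels summed to 563 RPKM in SPH and 749 in DLD1. PERP alone held 309 and 489 of these, so the sums differed mostly by this 1 gene. Median differences ran with GC content, from 0.06 for the broadly expressed genes of lowest GC content to -0.03 for those of highest. With that trend removed, the median was -0.13 for DNA replication and 0.09 for cytosolic ribosomal proteins. With median-of-ratios scaling the same medians were -0.19 and 0.05.

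**Figure D5:**
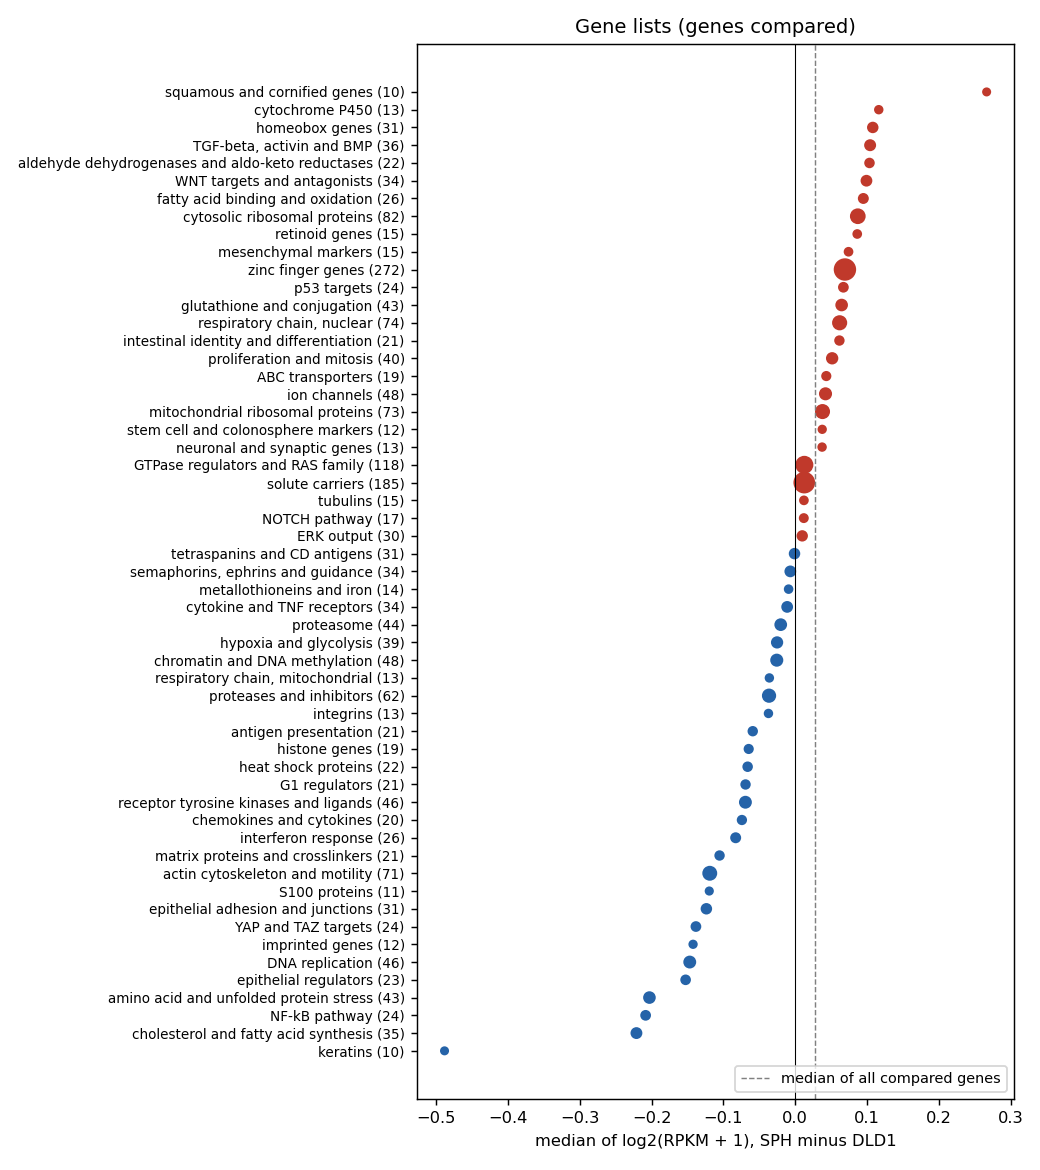
Median difference of each list with 10 or more compared genes, SPH minus DLD1 in log2(RPKM + 1) on the horizontal axis, with the number compared in parentheses and the point size growing with it. The dashed line is the median of all compared genes, 0.03; keratins lie lowest at -0.49 and squamous and cornified genes highest at 0.27.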

How the data were processed

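Total RNA of SPH, SA, METS and DLD1 was sequenced as 1 library each. The authors deposited 1 table of values per gene and line, read here as RPKM from the values themselves, since they are not whole and are rounded to 2 decimals; whether reads or fragments were counted is unknown. Per the submitters' processing notes, the genome was hg19. Which aligner, counter and annotation served is not given in the sources used here. Differences were log2(RPKM + 1) of the deposited values, SPH minus DLD1, over genes of at least 1 RPKM in the higher line. No replicates exist, so nothing was tested. Depth came from the step of low values in short genes, of 200 to 500 bases by GENCODE 29 exons,, and counting intervals are exact (Clopper-Pearson, 95%). The estimate of depth and the counts past a fold were checked on simulated data. Those data held counting error alone, on the same gene lengths, so spread between cultures was not covered. Members and the 72 gene lists were chosen with earlier results of these data known. The text names 2-fold genes, the 20 highest and 20 lowest broadly expressed genes, up to 4 genes per list by size of difference, 5 genes on each side of the threshold and markers, passing over clone-type, pseudogene, ribosomal protein, small and mitochondrial names. Clock and iron genes, near-identical copies, overlapping or neighbouring genes and a few list members beyond the rule were chosen after their values were seen. Symbols, chromosomes, gene order and promoters came from RefSeq (GRCh38.p14); none of its gene coordinates were used with the authors' build. Alternatives were pseudocounts of 0.1 and 5, other minimums, median-of-ratios and nuclear-sum scaling, and, added after seeing the data, a GC correction (lowess, span 0.3). Python 3.11.15, pandas 2.3.3, numpy 2.4.6, scipy 1.17.1 and statsmodels 0.14.6 were used. Some genes under that rule are not reported here.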

Additional observations from a re-analysis of the deposited data

How the results depend on the processing

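The counts depend most on the pseudocount. With 0.1, genes at least 2-fold higher in SPH numbered 207 and lower 143, and at 4-fold 50 and 30. With 5 they numbered 15 and 9 at 2-fold and 2 and 0 at 4-fold, and broad genes at least 1.5-fold numbered 24 higher and 35 lower. The 24 genes past 2-fold with 5 were all among the 144 by arithmetic, since a larger pseudocount can only shrink a difference. Requiring 5 RPKM in the higher line left 36 higher and 25 lower at 2-fold and 2 lower at 4-fold. Requiring 10 RPKM in both lines left 24 broad genes at least 1.5-fold higher and 36 lower. By the construction of these settings, small pseudocounts admit low genes and higher minimums remove them. With median-of-ratios factors the 2-fold counts were 72 and 64, and 10 of the 144 genes dropped out. With the GC correction they were 75 and 55, and 18 of the 144 genes were no longer counted. Only 132 of the 144 have a GC content, and genes without one were left out of that setting. Of these 132, 126 stayed past 2-fold, so most of the 18 were left out and did not fall below it. No count and no 2-fold gene changed direction, though a pseudocount cannot reverse a gene by its construction. Scaling moved the median of all compared genes by at most 0.03 (a fall of -0.03 with median-of-ratios factors). The medians of solute carriers, tubulins, GTPase regulators, the NOTCH pathway and ERK output change sign with that scaling, and those of ABC transporters, GTPase regulators and tetraspanins with the GC correction. No paired analysis was possible because each line has 1 library and the labels carry no replicate numbers. Values near 0 rest on few reads, and the spread between cultures of a line is unknown.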
